A study of Mus musculus with 48 samples.

Results

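Primary lung fibroblasts of mice heterozygous for the Ga13*-BERKY3 allele were given a virus that delivers Cre recombinase or an empty virus, and the comparison described here is Cre against empty virus across both stimulation states. It rests on 12 of the 48 libraries of the series: the 6 Ga13 libraries with Cre virus and the 6 with empty virus, all libraries of that line, with stimulation state as a covariate and the biosensor sequence left out of the gene counts. The 4 groups had 3 libraries each. They were Cre virus without agonist, empty virus without agonist, Cre virus with TRAP-6, and empty virus with TRAP-6. All cells carried the same allele and were seeded at 160000 per well. The viruses were AAV2/1-CMV-Cre and AAV2/1-CMV-empty, each diluted 1000-fold, and Cre was driven by the general CMV promoter. TRAP-6 was used at 100 µM, and it or plain fresh medium was on the cells for the last 90 min. Age and sex of the mice are not given in the labels, nor is the number of mice or the place of the allele in the genome. Cells given Cre differ from those given empty virus both in Cre and in the biosensor it switches on, and in these libraries the 2 cannot be told apart. Nothing in the labels says whether replicates came from separate mice or cultures, and the p-values below cover variation between these samples alone, perhaps only technical.

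Gα13 is the alpha subunit of a heterotrimeric G protein that receptors such as PAR1, the thrombin receptor, switch on. Active Gα13 binds guanine nucleotide exchange factors, which load RhoA with GTP. RhoA drives actin stress fibres through ROCK kinases, and actin assembly frees the coactivator MRTF to work with the transcription factor SRF on cytoskeletal genes. BERKY3 is a luminescent biosensor that binds the active form of the G protein, and TRAP-6 is a peptide that activates PAR1. Whether cells that make such a sensor keep their own signalling genes at the same level is the question that Cre against empty virus addresses at the level of RNA.

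Values are given as CPM, counts per 1000000 gene counts of the library, and depth as M, units of that number. Libraries with Cre virus were deeper, at 21.7 M, 30.1 M and 42.6 M gene counts (lowest, median and highest of 6), against 17.4 M, 20.8 M and 29.1 M with empty virus. Checked against marker genes, all 12 fibroblast markers passed the filter on low counts, as did 12 of 12 mesothelial, 16 of 18 macrophage, 10 of 11 smooth muscle and pericyte and 9 of 12 endothelial markers, 2 of 12 of lung epithelium and 0 of 11 of lymphocytes. Summed levels were 45890 to 49120 CPM for the fibroblast list, 860 to 1134 CPM for the mesothelial list and 15.2 to 19.2 CPM for the endothelial list over the 12 libraries. Sftpa1, Sftpd, Scgb1a1, Cd8a, Trac, Hba-a1, Hbb-bs, Hbb-bt and Rbfox3 had 0 counts in all 12 libraries.

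The biosensor transcript followed the labels in every library. It had 122, 125 and 107 CPM in the 3 unstimulated Cre libraries, against 0.761, 0.653 and 0.515 CPM in the 3 unstimulated empty virus libraries. With TRAP-6 it had 134, 128 and 136 CPM with Cre virus, against 0.0521, 0.919 and 0.829 CPM with empty virus. All 6 Cre libraries lay far above all 6 others. Means were 118 ± 9.63 CPM with Cre virus and 0.643 ± 0.123 CPM with empty virus at rest (SD, n = 3), a ratio of 183. With TRAP-6 the means were 133 ± 4.003 CPM with Cre virus and 0.600 ± 0.477 CPM with empty virus, a ratio of 221. The difference in mean log2 (CPM + 0.1) was 7.65, and an exact two-sided permutation test within states gave p = 0.005, the smallest that its 400 arrangements allow. The empty virus libraries still held 80 counts of the biosensor in all, 1 to 19 each, against 2320 to 5312 counts in each Cre library. The lowest, with 1 count, was the first TRAP-6 replicate.

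**Figure D1:**
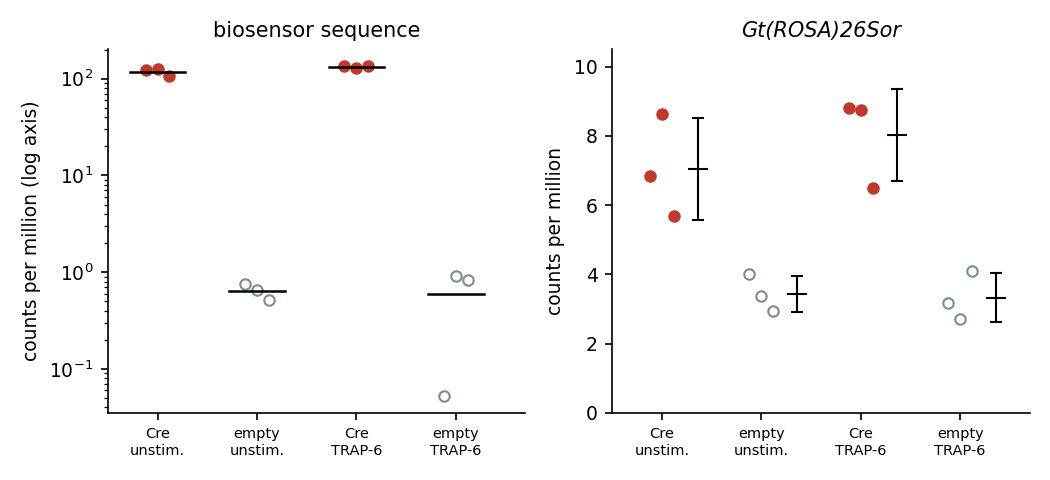
CPM of the biosensor sequence (left, log axis) and of Gt(ROSA)26Sor (right, linear axis) in the 12 Ga13 libraries. Filled red points are Cre libraries and open grey points empty virus libraries; lines on the left are group means and bars on the right mean ± SD of 3. Cre libraries hold 107 to 136 CPM of the biosensor and 5.70 to 8.81 CPM of Gt(ROSA)26Sor, above every empty virus library in both panels.

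Against this large difference in 1 transcript, few genes of the mouse differed. With Cre virus 6 of 15835 genes tested rose (0.0379%) and 2 fell (0.0126%), 0.0505% in all at an edgeR quasi-likelihood adjusted p under 0.05, and 3 of the 8 differed at least 1.5-fold. DESeq2 called 16 genes, 14 higher and 2 lower, and these included all 8. At an unadjusted p under 0.05 443 genes were higher (2.8%) and 319 lower (2.01%) in edgeR, 4.81% of those tested. The median log2 change of all genes was 0.00. In 5 of the 8 genes all 6 Cre libraries lay on 1 side of all 6 empty virus libraries, as they did in 0.227% of all genes. In 7 of the 8 the groups did not overlap within either state, against 0.556% of all genes. The 8 were picked by p on these same libraries, so their separation describes them and is no further support. The count rested on a fit without replicate number. With that number as a further covariate edgeR called 25 genes, 18 higher and 7 lower, including all 8.

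**Figure D2:**
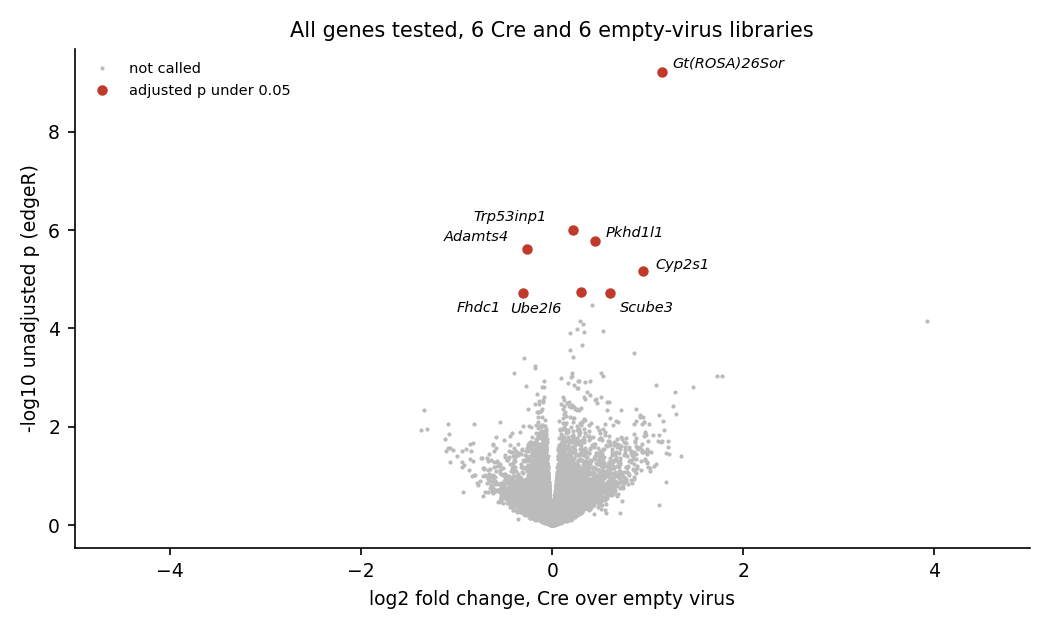
Log2 fold change of Cre over empty virus (x axis) against −log10 of the unadjusted edgeR p (y axis) for the 15835 genes tested. Red points are the 8 genes with an adjusted p under 0.05, of which Gt(ROSA)26Sor stands highest at a log2 change of 1.15; grey points are the other genes.

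The gene with the smallest p was Gt(ROSA)26Sor, the noncoding transcript of the Rosa26 locus, a site into which transgenes of mice are often placed. It had 6.83, 8.62 and 5.70 CPM in unstimulated Cre libraries, against 3.995, 3.37 and 2.95 CPM in unstimulated empty virus libraries. With TRAP-6 it had 8.81, 8.75 and 6.50 CPM with Cre virus, against 3.18, 2.70 and 4.10 CPM with empty virus. Every Cre library lay above every empty virus library. Over both states Gt(ROSA)26Sor rose by 1.15 ± 0.13 on the log2 scale (SE, edgeR adjusted p = 9.68e-06), and this call held when any 1 library was left out. It was also called in each state alone. It overlaps Thumpd3 on the other strand, and how strand was used in counting is not given in the sources used here, so reads of the pair could have been mixed. Thumpd3 itself averaged 14.5 ± 0.945 CPM with Cre virus and 14.6 ± 1.32 CPM with empty virus (SD, n = 6), a log2 change of -0.01 ± 0.07. Setd5, which lies near Gt(ROSA)26Sor on the same chromosome, had a log2 change of -0.00 ± 0.03.

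The largest changes after it were in 2 genes of low level. Cyp2s1, a cytochrome P450 enzyme that metabolizes retinoids, had 3.00, 2.33 and 3.77 CPM at rest with Cre virus, against 1.67, 2.03 and 1.41 CPM with empty virus. With TRAP-6 it had 2.76, 4.40 and 3.99 CPM with Cre virus, against 1.77, 1.84 and 1.56 CPM with empty virus. The groups did not overlap in either state, and Cyp2s1 rose by 0.95 ± 0.18 on the log2 scale (SE, edgeR adjusted p = 0.0215). Scube3, a secreted glycoprotein with EGF-like and CUB domains, had 5.44, 5.48 and 7.26 CPM at rest with Cre virus, against 4.33, 4.40 and 3.23 CPM with empty virus. With TRAP-6 its values were 6.69, 5.75 and 6.14 CPM with Cre virus, against 3.75, 3.85 and 4.34 CPM with empty virus. All 6 Cre libraries were again the higher ones, and Scube3 rose by 0.60 ± 0.12 (edgeR adjusted p = 0.0385). Both genes overlap transcripts without an assigned name on the other strand. Cyp2s1 had 623 counts over the 6 Cre libraries and 222 over the 6 with empty virus.

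Trp53inp1, a p53 target gene whose product takes part in autophagy and cell death, had 148, 138 and 144 CPM at rest with Cre virus, against 131, 126 and 114 CPM with empty virus. TRAP-6 libraries held 139, 144 and 141 CPM with Cre virus, against 120, 127 and 111 CPM with empty virus. The lowest Cre library was above the highest empty virus library, and Trp53inp1 rose by 0.22 ± 0.04 on the log2 scale (SE, edgeR adjusted p = 0.00778). Ube2l6, the enzyme that conjugates the interferon-induced ubiquitin-like protein ISG15, had 35.5, 30.7 and 39.4 CPM at rest with Cre virus, against 28.4, 25.2 and 28.7 CPM with empty virus. In TRAP-6 libraries it had 32.5, 35.9 and 29.3 CPM with Cre virus, against 27.3, 26.4 and 27.2 CPM with empty virus. The groups came close but did not overlap, and Ube2l6 rose by 0.31 ± 0.06 (edgeR adjusted p = 0.0385).

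Pkhd1l1, a large membrane protein related to fibrocystin, had 23.3, 16.6 and 20.6 CPM at rest with Cre virus, against 15.7, 13.8 and 16.0 CPM with empty virus. Its TRAP-6 values were 20.8, 21.2 and 23.4 CPM with Cre virus, against 14.0, 16.8 and 15.5 CPM with empty virus. Within each state the Cre libraries were all higher, though the second Cre replicate at rest lay just under the highest empty virus library with TRAP-6. Pkhd1l1 rose by 0.45 ± 0.08 on the log2 scale (SE, edgeR adjusted p = 0.00894).

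The 2 genes that fell encode a matrix protease and a cytoskeletal protein. Adamts4, a secreted protease that cleaves the proteoglycan aggrecan, had 40.8, 44.8 and 45.8 CPM at rest with Cre virus, against 50.3, 49.5 and 57.9 CPM with empty virus. TRAP-6 libraries held 47.6, 46.2 and 52.8 CPM with Cre virus, against 56.7, 60.3 and 57.6 CPM with empty virus. The groups did not overlap within a state, and Adamts4 fell by 0.26 ± 0.05 on the log2 scale (SE, edgeR adjusted p = 0.00957). Fhdc1, a formin that acts on actin filaments and microtubules, had 30.4, 26.8 and 32.6 CPM at rest with Cre virus, against 37.6, 36.8 and 40.3 CPM with empty virus. Its TRAP-6 values were 22.8, 21.8 and 26.1 CPM with Cre virus, against 27.1, 25.3 and 30.2 CPM with empty virus. The TRAP-6 groups overlapped and the unstimulated groups did not, and over both states Fhdc1 fell by 0.30 ± 0.06 (edgeR adjusted p = 0.0385).

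The 2 genes with the next smallest p among those the naming rule covers missed the threshold. Notch1, a receptor of cell contact signalling, averaged 10.9 ± 1.13 CPM with Cre virus and 8.14 ± 0.549 CPM with empty virus (SD, n = 6). Its log2 change was 0.42 ± 0.09 (edgeR adjusted p = 0.0595, DESeq2 adjusted p = 0.00863). Krt8, a keratin of simple epithelia and mesothelium, averaged 19.1 ± 1.51 CPM with Cre virus and 15.5 ± 1.09 CPM with empty virus. Its log2 change was 0.29 ± 0.06 (edgeR adjusted p = 0.103, DESeq2 adjusted p = 0.0108). In both genes the lowest Cre library lay above the highest empty virus library. Both overlap other annotated transcripts.

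**Figure D3:**
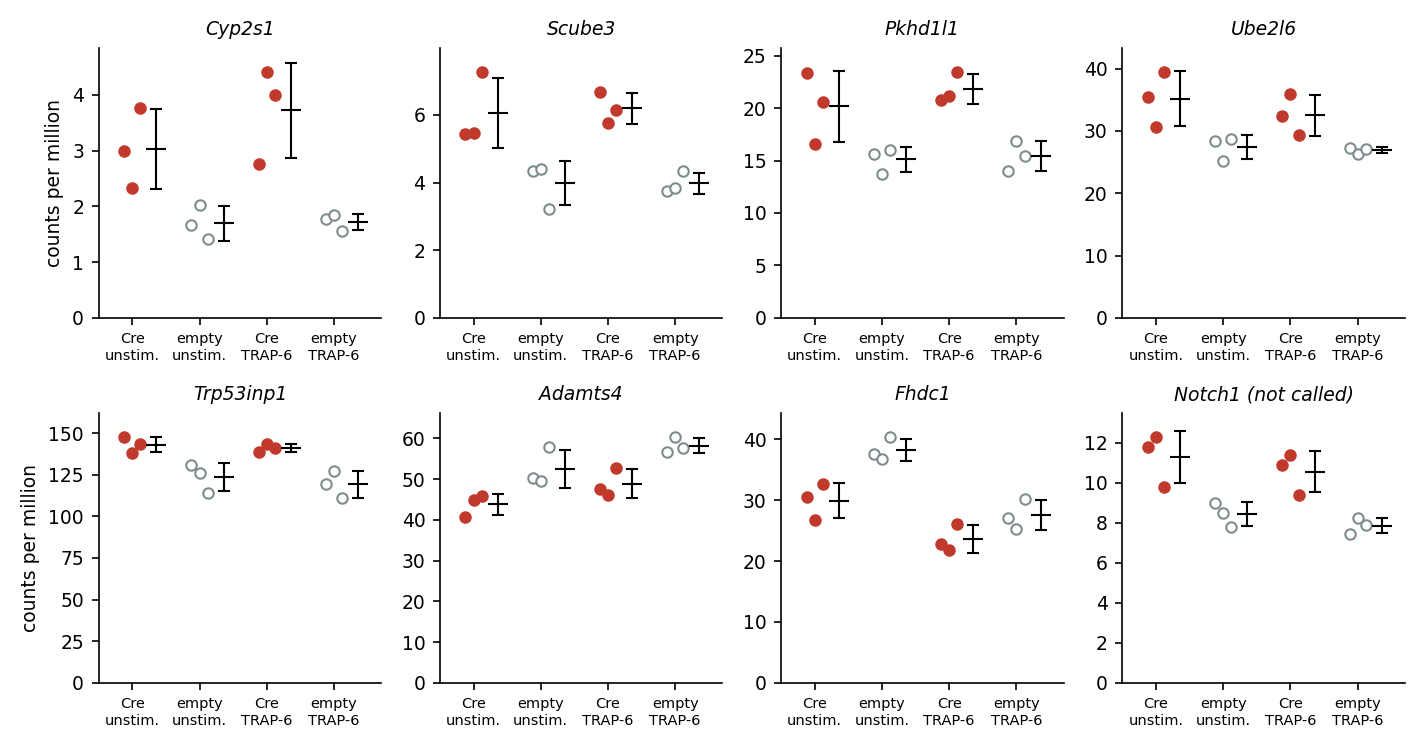
CPM of the 7 called genes other than Gt(ROSA)26Sor and of Notch1, which missed the threshold, in the 12 Ga13 libraries. Filled red points are Cre libraries, open grey points empty virus libraries, and bars the mean ± SD of 3 libraries; every y axis starts at 0. Cyp2s1, Scube3, Pkhd1l1, Ube2l6 and Trp53inp1 are higher with Cre virus in both states, and Adamts4 and Fhdc1 lower.

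The calls differed in how far they depended on single libraries. Gt(ROSA)26Sor, Pkhd1l1 and Trp53inp1 kept their call whichever 1 of the 12 libraries was left out. Adamts4 lost it without the second TRAP-6 empty virus replicate (edgeR adjusted p = 0.0557). Cyp2s1 lost it in 7 of the 12 fits, Fhdc1 in 9, Ube2l6 in 10 and Scube3 in 11, with adjusted p up to 0.0901, 0.205, 0.214 and 0.158 in edgeR, and no gene of the 8 changed sign. Because depth moved with the virus, all libraries were also thinned to the smallest one, an alternative chosen after seeing the data: 6 genes were then called and all 6 were among the 8, while Ube2l6 (edgeR adjusted p = 0.162) and Fhdc1 (edgeR adjusted p = 0.0827) were not.

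Taken state by state, fewer genes passed in the main edgeR fits. At rest 1 gene was called, 0.00632% of those tested, and it was Gt(ROSA)26Sor with a log2 change of 1.04 ± 0.19 (SE, edgeR adjusted p = 0.0442). That call was lost in 6 of the 12 fits with 1 library left out, at adjusted p up to 0.482. With TRAP-6 it was 6 genes (0.0379%), all higher with Cre virus, and 5 of them were not called over both states. Gt(ROSA)26Sor changed there by 1.25 ± 0.19 (edgeR adjusted p = 0.00103) and was called in all 12 such fits. When replicate number was a further covariate, edgeR called 33 genes at rest and 112 with TRAP-6. Across the 15835 genes the virus effects at rest and with TRAP-6, which share no library, had a Pearson r of 0.014 and a Spearman rho of -0.039; genes are not independent replicates and no test is given.

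Only a test of the difference between states can show that an effect depends on TRAP-6, and it called 13 genes, 0.0821%, with 12 more positive and 1 more negative under TRAP-6. Adding replicate number as a covariate raised this count to 138. Lrrk2, a kinase known from Parkinson's disease, had 144, 154 and 155 CPM with Cre virus and TRAP-6, against 114, 116 and 125 CPM with empty virus and TRAP-6. At rest it had 89.0, 90.3 and 95.3 CPM with Cre virus, against 88.7, 98.2 and 105 CPM with empty virus. The groups separated with TRAP-6 and overlapped at rest, with a log2 difference of 0.45 ± 0.07 between the effects (SE, edgeR adjusted p = 0.00691). Nrp1, a co-receptor for semaphorins and VEGF, had 168, 175 and 172 CPM with Cre virus and TRAP-6, against 142, 148 and 144 CPM with empty virus and TRAP-6. At rest it had 135, 133 and 140 CPM with Cre virus, against 137, 144 and 146 CPM with empty virus. Its virus effect was 0.24 ± 0.04 with TRAP-6 and -0.08 ± 0.04 at rest, a difference of 0.32 ± 0.06 (edgeR adjusted p = 0.0179).

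Ppp1r15a, the GADD34 subunit that directs a phosphatase to the translation factor eIF2α, went the other way. It had 65.4, 60.9 and 71.3 CPM with Cre virus and TRAP-6, against 79.0, 73.1 and 84.9 CPM with empty virus and TRAP-6. At rest it had 62.0, 64.8 and 65.2 CPM with Cre virus, against 54.9, 54.4 and 55.1 CPM with empty virus. Cre libraries were thus lower with TRAP-6 and higher at rest without overlap, and the effects differed by -0.48 ± 0.08 (SE, edgeR adjusted p = 0.0103), although neither state's effect was called alone. Slc30a1, a zinc exporter, had 40.2, 35.4 and 33.7 CPM with Cre virus and TRAP-6, against 26.6, 27.3 and 30.9 CPM with empty virus and TRAP-6. At rest it had 41.9, 40.6 and 41.2 CPM with Cre virus, against 45.7, 43.5 and 49.0 CPM with empty virus. These effects differed by 0.53 ± 0.10 (edgeR adjusted p = 0.0300). Ppp1r15a overlaps Tulp2 and Slc30a1 overlaps an unnamed transcript, each on the other strand.

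The other 9 genes of that test were Inhba, Lmcd1, Thbd, Hivep2, Sox9, Gfod1, Socs3, Cxcl12 and Fzd1, and each had a negative effect at rest and a positive one with TRAP-6. Inhba, which encodes the activin A subunit, had log2 effects of 0.23 ± 0.05 with TRAP-6 and -0.18 ± 0.05 at rest. Thbd, the thrombin-binding receptor thrombomodulin, had 0.21 ± 0.05 with TRAP-6 and -0.16 ± 0.05 at rest. Ivl, which encodes involucrin, was called with TRAP-6 (0.48 ± 0.07, edgeR adjusted p = 0.00278) but its effects in the states did not differ by the test (0.30 ± 0.11, edgeR adjusted p = 0.438).

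Signalling genes of the pathway that the sensor reads had small log2 changes between viruses, and the sign of some differed between states. Gna13, which encodes Gα13 itself, had 99.9, 102 and 106 CPM at rest with Cre virus, against 102, 96.4 and 108 CPM with empty virus. TRAP-6 libraries held 93.9, 93.2 and 91.8 CPM with Cre virus, against 92.1, 92.6 and 94.2 CPM with empty virus. The groups overlapped in both states, and the log2 change was -0.00 ± 0.03, with a sign that depended on the setting. F2r, which encodes PAR1, averaged 454 ± 10.6 CPM with Cre virus and 464 ± 19.9 CPM with empty virus (SD, n = 6), a log2 change of -0.04 ± 0.03. At rest F2r had 440, 444 and 456 CPM with Cre virus, against 467, 469.8 and 497 CPM with empty virus. With TRAP-6 it had 459, 469.6 and 457 CPM with Cre virus, against 453, 438 and 459 CPM with empty virus. Cre libraries were thus lower at rest without overlap and overlapped with TRAP-6, and the effects in the states differed by 0.14 ± 0.05, short of the threshold (edgeR adjusted p = 0.427). Groups on 1 side of each other were found for 11% of all genes at rest and 12.3% with TRAP-6. Gna12, the close relative of Gna13, had a log2 change of 0.03 ± 0.04. The exchange factor genes that active Gα13 can bind had log2 changes of 0.02 ± 0.04 (Arhgef1), 0.04 ± 0.03 (Arhgef11) and 0.04 ± 0.03 (Arhgef12), and Rhoa had one of -0.03 ± 0.03. Cre libraries were higher without overlap for Arhgef11 at rest and for Arhgef12 with TRAP-6. None of these 7 genes was called by edgeR or DESeq2. All but Arhgef1 and F2r overlap another annotated gene.

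Of the 37 genes in a list of G13 and RhoA signalling, edgeR and DESeq2 each called 0, with 1 higher and 2 lower at an unadjusted edgeR p under 0.05. At that p 2.8% of all genes were higher and 2.01% lower, the shares to set beside each such count below. Their median log2 change was -0.03, against 0.00 for all genes tested. The 3 with the smallest p, chosen after their values were seen, were the myosin light chain genes Myl9 (-0.10 ± 0.03) and Myl12a (-0.07 ± 0.03) and the RhoA effector kinase gene Rock2 (0.06 ± 0.03). Of 18 tested receptors that couple to G13 or partner with the thrombin receptor, 0 were called by either tool and 1 was lower at an unadjusted p under 0.05, Agtr1a, with a log2 change of -0.45 ± 0.20. Summed over all members of that list, Cre libraries held 2101 to 2258 CPM at rest, against 2260 to 2460 CPM with empty virus. With TRAP-6 they held 2983 to 3099 CPM, against 2688 to 2860 CPM with empty virus. The sums did not overlap in either state, narrowly so at rest, and differed in opposite directions. Sums also separated in opposite directions for TGF-beta and BMP genes and, reversed, for unfolded protein and amino acid stress genes. Sums weigh genes of high level most. Thbd, called in the test between states, averaged 1313 CPM with Cre virus and 1136 CPM with empty virus under TRAP-6, against 710.5 and 786.7 CPM at rest. Inhba, called there too, averaged 1982 and 1683 CPM under TRAP-6, against 1265 and 1424 CPM at rest. The sums thus do not show that each list shifted as a whole. The receptor list's median log2 change was -0.10 at rest and 0.015 with TRAP-6. G protein subunits and regulators had 0 of 46 called by either tool, 2 higher and 2 lower at an unadjusted p under 0.05, and a median of -0.01.

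Targets downstream of RhoA had mostly small negative changes. Of 33 SRF and MRTF targets, 29 had a negative log2 change and 4 a positive one, with a median of -0.03 and 0 called by edgeR or DESeq2. At an unadjusted p under 0.05, 7 were lower and 0 higher, against 2.01% and 2.8% of all genes. Actb, cytoplasmic beta-actin, had 2157, 2170 and 2166 CPM at rest with Cre virus, against 2298, 2341 and 2250 CPM with empty virus. Its TRAP-6 values were 2446, 2395 and 2399 CPM with Cre virus, against 2550, 2574 and 2439 CPM with empty virus. The groups overlapped with TRAP-6 and not at rest, and the log2 change was -0.08 ± 0.02 (SE, edgeR adjusted p = 0.515). Acta2, the smooth muscle actin of myofibroblasts, averaged 2355 ± 171 CPM with Cre virus and 2509 ± 228 CPM with empty virus (SD, n = 6), a log2 change of -0.10 ± 0.03 (edgeR adjusted p = 0.782). Actins and myosin light chains have near-identical relatives, which leaves their counts uncertain. Of 24 YAP and TAZ targets 0 were called by either tool and 1 was lower at an unadjusted p under 0.05, Ccn2 at -0.06 ± 0.02. Of 37 immediate early and ERK feedback genes 0 were called by either tool, with a median of -0.01. At an unadjusted p under 0.05, 1 was higher and 4 were lower, against 2.8% and 2.01% of all genes.

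Collagens and other matrix proteins held 0 calls of 38 by either tool, with 2 higher and 3 lower at an unadjusted p under 0.05. Col1a1, the main fibrillar collagen gene of fibroblasts, averaged 22110 ± 692 CPM with Cre virus and 22210 ± 649 CPM with empty virus (SD, n = 6), a log2 change of -0.01 ± 0.02. Among 26 matrix proteases and inhibitors Adamts4 was the single call, and Mmp14, a membrane-bound collagenase, had a log2 change of -0.09 ± 0.03 (edgeR adjusted p = 0.566). In all, the 34 lists held 681 tested genes, of which edgeR called 3, Gt(ROSA)26Sor, Trp53inp1 and Adamts4, and DESeq2 6.

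Of 32 p53 targets and DNA damage genes 1 was called, Trp53inp1. At an unadjusted p under 0.05, 5 were higher and 0 lower, against 2.8% and 2.01% of all genes. There were 27 positive and 5 negative log2 changes with a median of 0.07. Summed over the list, Cre libraries held 4446 to 4479 CPM at rest, against 4115 to 4351 CPM with empty virus, and 4381 to 4449 CPM with TRAP-6, against 4134 to 4327 CPM with empty virus. The sums did not overlap in either state. Besides Trp53inp1 the examples with the smallest p were Mdm2, the ligase that degrades p53, at 0.08 ± 0.03, and Xpc, a DNA repair factor, at 0.19 ± 0.08, both at an edgeR adjusted p of 0.990. Leaving out 1 library at a time moved the list median between 0.04 and 0.08.

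Interferon-stimulated genes had mostly positive log2 changes and varied widely between libraries. Of 41 tested, 40 had a positive log2 change with a median of 0.31, while edgeR and DESeq2 each called 0. At an unadjusted p under 0.05, 6 were higher, as were 2.8% of all genes. The list median was 0.58 at rest and 0.07 with TRAP-6. Ifit1, an RNA-binding antiviral protein, had 23.4, 26.2 and 96.5 CPM at rest with Cre virus, against 30.3, 6.74 and 19.9 CPM with empty virus. With TRAP-6 it had 22.3, 20.4 and 8.49 CPM with Cre virus, against 48.2, 8.15 and 10.4 CPM with empty virus. The groups overlapped in both states, and the third Cre replicate at rest was the highest library. Rsad2, the antiviral enzyme viperin, had 29.4 CPM in that library and 0.275 to 9.18 CPM in the other 11. Without that library the list median was 0.13, and the medians without any 1 library reached 0.44. Summed over the list, Cre libraries held 1120 to 1582 CPM at rest, against 884 to 1117 CPM with empty virus, and 873 to 1108 CPM with TRAP-6, against 877 to 1196 CPM with empty virus. The smallest p in the list was that of Tap1, a peptide transporter of antigen presentation, with a log2 change of 0.26 ± 0.07 (edgeR adjusted p = 0.566). Ube2l6, described above, is not in the list.

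Promoters of this list are shown for the element through which interferon is known to act. Its core was searched as GAAA, any 2 bases and GAAA, or on the other strand TTTC, any 2 bases and TTTC, in RefSeq windows from 250 bases before to 50 after each gene start (GRCm38.p6, an earlier build than that of the counts). Of the 30 list genes with a window, 17 held it (56.7%), against 3.99% of all 27025 genes with one. Of the 8 called genes 4 had a window and 1 of these, Scube3, held it, while that of Ube2l6 did not. The sequences below, on the gene's strand with matches in capitals, are from Ifit1 (chr19:34640760-34640819, plus strand), Rsad2 (chr12:26456538-26456597, minus strand) and Scube3 (chr17:28142096-28142155, plus strand).
Ifit1: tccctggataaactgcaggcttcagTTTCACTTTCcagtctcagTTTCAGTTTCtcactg
Rsad2: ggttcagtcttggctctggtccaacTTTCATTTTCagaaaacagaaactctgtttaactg
Scube3: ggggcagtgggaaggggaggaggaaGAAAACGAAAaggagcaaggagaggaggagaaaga
The first match starts 104 bases before the gene start in Ifit1, 120 in Rsad2 and 188 in Scube3. A match is a description of these letters and does not show binding.

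Mesothelial markers, which a lung fibroblast culture can hold from cells of the pleura, also had mostly positive changes. Of 12 tested, 11 had a positive log2 change with a median of 0.21. Counts of calls were 0 in edgeR and 3 in DESeq2 (Krt8, Krt18 and Upk1b). At an unadjusted edgeR p under 0.05, 7 were higher and 0 lower, against 2.8% and 2.01% of all genes. Msln, the mesothelial surface protein mesothelin, had 70.8, 64.6 and 66.4 CPM at rest with Cre virus, against 56.5, 55.2 and 53.5 CPM with empty virus. With TRAP-6 it had 61.4, 60.8 and 63.8 CPM with Cre virus, against 60.3, 54.1 and 59.8 CPM with empty virus. All Cre libraries were higher, and the log2 change was 0.18 ± 0.04 (SE, edgeR adjusted p = 0.124). The transcription factor gene Wt1 and the adhesion gene Lrrn4 had changes of 0.01 ± 0.05 and -0.00 ± 0.09. Summed over the list, Cre libraries held 923 to 1066 CPM at rest, against 860 to 950 CPM with empty virus, and 984 to 1134 CPM with TRAP-6, against 898 to 1032 CPM with empty virus. The part of these cells in the 8 called genes was not tested. In bulk samples more cells of a type and more RNA per cell cannot be told apart.

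Markers of other cell types held no calls. Of 12 fibroblast markers 0 were called by either tool and 0 reached an unadjusted p under 0.05, with a median of -0.01. Of 10 smooth muscle and pericyte markers 0 were called by either tool. At an unadjusted p under 0.05, 2 were lower, Acta2 and Cnn1, against 2.01% of all genes. Of 16 macrophage markers 0 were called by either tool or reached that p, with summed levels of 251 to 350 CPM with Cre virus and 252.5 to 339 CPM with empty virus. The third replicate of each of the 4 groups was the lowest, at 251 to 261 CPM, while the other 8 libraries held 317 to 350 CPM. Of 30 genes of the G2 and M phases 24 had a negative log2 change with a median of -0.16, 0 were called by either tool and 2 were lower at an unadjusted p under 0.05. That median was -0.03 without the third empty virus replicate at rest, the highest in summed level of these genes.

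**Figure D4:**
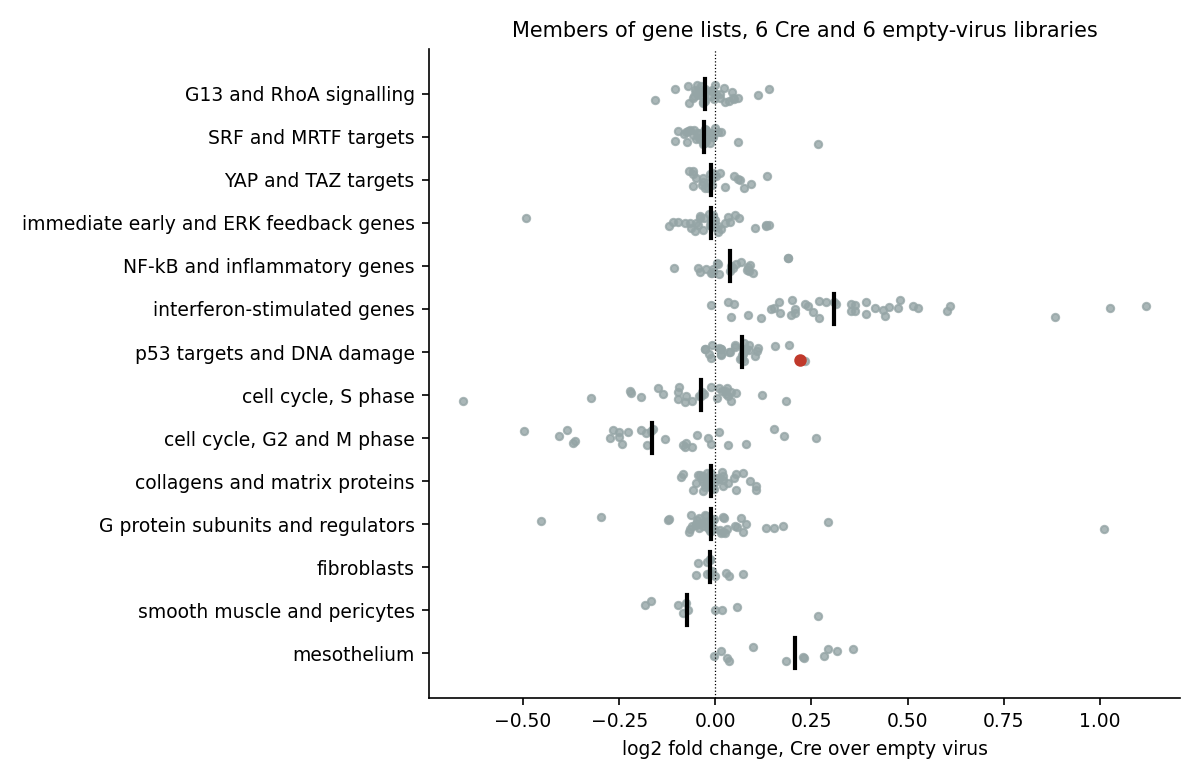
Log2 fold change of Cre over empty virus for each tested member of 14 gene lists (points), with the list median (black bar) and called genes in red. Most members lie near 0; interferon-stimulated genes have a median of 0.31, mesothelial markers 0.21 and G2 and M phase genes -0.16, and the red point is Trp53inp1.

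The Gai and Gaq lines, lung fibroblasts of mice with a BERKY3 sensor for another G protein, had the same viruses, agonist and number of libraries. In 1 fit of the 36 libraries, with a shared estimate of spread and 16749 genes tested, 1 gene was called for Ga13 (0.00597%), 10 for Gai (0.0597%) and 719 for Gaq (4.29%). Whether the Ga13 effect differs from the mean of the other 2 was tested directly, and edgeR called 0 genes, with 977 at an unadjusted p under 0.05 (5.83%), while DESeq2 called 4, 2 higher and 2 lower. Adding the replicate number of each line as a covariate, edgeR called 87 genes, 38 higher and 49 lower.

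Each of the 8 genes called in Ga13 had the same sign in Gai and in Gaq, a pattern that 28.4% of all genes showed across the 3 lines. In that fit 1 of the 8, Gt(ROSA)26Sor, was called in Ga13, 2 in Gai, Gt(ROSA)26Sor and Ube2l6, and 6 in Gaq. Gt(ROSA)26Sor averaged 7.53 ± 1.36 CPM with Cre virus and 3.38 ± 0.562 CPM with empty virus in Ga13 (SD, n = 6). In Gai it averaged 9.22 ± 0.710 CPM with Cre virus and 5.59 ± 0.954 CPM with empty virus, a log2 change of 0.72 ± 0.13 (SE, edgeR adjusted p = 0.00359). In Gaq it averaged 4.50 ± 0.508 CPM with Cre virus and 3.45 ± 0.882 CPM with empty virus, a change of 0.39 ± 0.14 that missed the threshold (edgeR adjusted p = 0.144). The Ga13 effect exceeded the mean of the other 2 by 0.59 ± 0.17, which did not pass over all genes (edgeR adjusted p = 0.450).

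Pkhd1l1 had a larger point estimate in Gaq, at 0.97 ± 0.11 (SE, edgeR adjusted p = 1.03e-06), with 21.8 ± 1.53 CPM with Cre virus and 11.1 ± 3.12 CPM with empty virus (SD, n = 6). Cyp2s1 changed there by 1.23 ± 0.23, Scube3 by 0.55 ± 0.13, Ube2l6 by 0.50 ± 0.07, Trp53inp1 by 0.38 ± 0.08 and Adamts4 by -0.40 ± 0.08, all called. Fhdc1 had changes of -0.20 ± 0.08 in Gai and -0.12 ± 0.08 in Gaq and was called in neither. Adamts4 in Gai had -0.02 ± 0.08. For none of the 8 did the Ga13 effect differ from the mean of the other lines by the test over all genes.

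**Figure D5:**
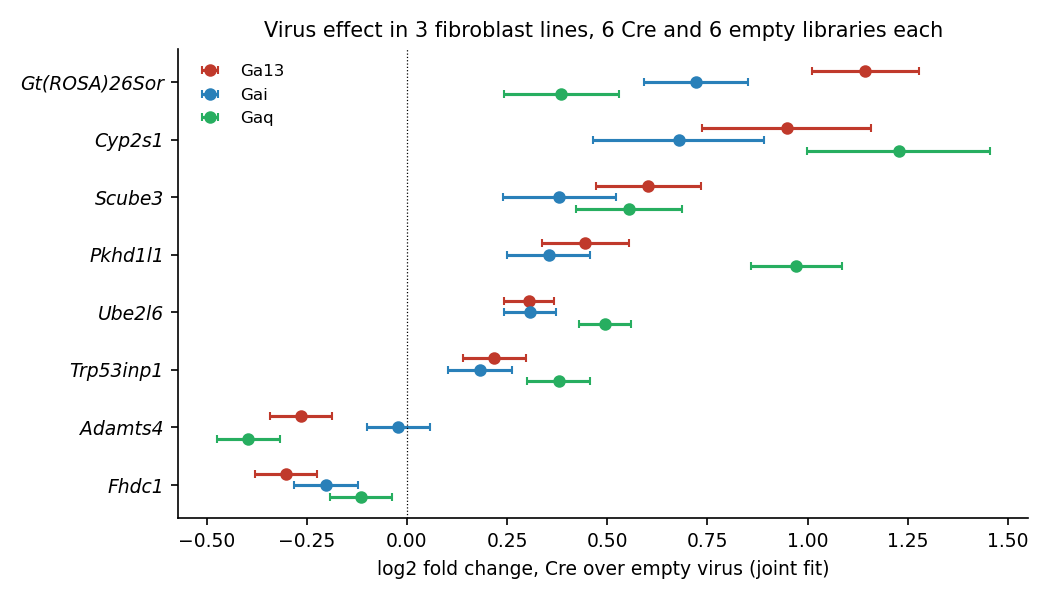
Log2 fold change of Cre over empty virus, with its SE, for the 8 genes called in Ga13, in the Ga13, Gai and Gaq lines of the joint fit (6 Cre and 6 empty virus libraries per line). All 24 estimates have the sign seen in Ga13. Among the lines, the largest change is in Ga13 for Gt(ROSA)26Sor, Scube3 and Fhdc1. It is in Gaq for Cyp2s1, Pkhd1l1, Ube2l6, Trp53inp1 and Adamts4.

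Of the 719 genes called in Gaq, 440 (61.2%) had the same sign in Ga13, against 52.5% of all genes, and the median Ga13 log2 change was 0.01 for the 435 higher ones and -0.02 for the 284 lower ones. All 10 genes called in Gai had the same sign in Ga13, and they include Gt(ROSA)26Sor, Ube2l6 and Krt8. The share of all genes with the same sign in these 2 lines was not computed. Across the 16749 genes the effects in Ga13 and Gaq had a Pearson r of 0.04 and those in Ga13 and Gai 0.049, given as a description. In Gaq 2.6% of all genes tested were called higher and 1.7% lower. There 8 of 41 interferon-stimulated genes, 10 of 32 p53 targets, 7 of 12 mesothelial markers and 9 of 38 collagens and matrix proteins were called higher. Called lower in Gaq were 4 of the 38 collagens and matrix proteins, 6 of 26 matrix proteases and inhibitors and 5 of 18 NRF2 targets. In Gai 3 of the 12 mesothelial markers were called higher. In Ga13 the same fit called 0 members of these lists, and the fit of the 12 Ga13 libraries alone called 1 p53 target, Trp53inp1, and 1 protease, Adamts4, while DESeq2 on those libraries also called 3 mesothelial markers.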

How the data were processed

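The authors deposited raw counts of reads per gene. Per the submitters' processing notes the tools were fastp, Subread and featureCounts and the build GRCm39; versions, annotation and strand setting are not given in the sources used here. Counts of overlapping genes and of genes with near-identical copies are therefore uncertain. The biosensor row was left out of library sizes and tests.

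In R 4.3.3, genes were filtered with filterByExpr (15835 of 50763 kept in Ga13, 16749 in the joint fit of 36 libraries), scaled by TMM and tested two-sided with edgeR 4.0.16's robust quasi-likelihood test, with Benjamini-Hochberg adjustment over all genes and a threshold of 0.05. DESeq2 1.42.0 was an alternative. The biological coefficient of variation was 0.0699. The overall effect used virus plus stimulation state; effects by state and their difference used 1 mean per group; the joint fit had a mean per line and state and 1 virus effect per line. The procedure was run on simulated counts without a replicate effect, and the outcome is not given here. The changes set there were larger than those of most called genes. Mitochondrially encoded genes (13) held 0 counts in all libraries. Only symbols, overlaps and promoters came from GRCm38 annotation, which held 92.7% of tested symbols.

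Named genes were all called genes with a symbol at a mean CPM of at least 1, the 10 with the smallest p, up to 4 from the difference between states, up to 3 called in 1 state, up to 3 called per list, and 8 fixed genes; list examples without a call were chosen after their values were seen. The members and lists were chosen with earlier results of these data known. Some items are not reported here.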

Additional observations from a re-analysis of the deposited data

Results flagged for a closer look

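The test of the difference between states was the one result picked out for a closer look, because 2 groups under the same contrast gave different effects: 13 genes had a virus effect with TRAP-6 that differed from that at rest (edgeR adjusted p under 0.05), 57 by DESeq2. The differences in log2, TRAP-6 minus rest, were 0.45 for Lrrk2, -0.48 for Ppp1r15a, 0.32 for Nrp1 and 0.53 for Slc30a1. Lrrk2 and Ppp1r15a kept their call whichever 1 library was left out, while Nrp1 lost it in 4 and Slc30a1 in 7 of the 12 fits. With TRAP-6 depth was 26.8, 33.4 and 39.1 M with Cre virus, against 19.2, 17.4 and 20.5 M with empty virus, without overlap. At rest it was 21.7, 42.6 and 21.8 M with Cre virus, against 21.0, 29.1 and 21.3 M, with overlap. The depth gap thus also differed between states, and its part in this result was not tested. After thinning to the smallest library 19 genes were called.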

How the results depend on the processing

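Over both states 8 genes were called, and 8 again with DESeq2's size factors or upper-quartile scaling in edgeR. The count was 29 with no filter on low counts, 4 without the robust option, 16 with DESeq2, 3 at 1.5-fold or more, and 4 to 11 with 1 library left out. Counts at rest (1 gene) were 33 with no filter, 6 with DESeq2 and 0 to 4 with 1 library left out, and without the robust option 1 other gene, a lower one, was called. With TRAP-6 (6 genes) they were 10 with upper-quartile scaling, 62 with no filter, 29 with DESeq2 and 2 to 13 with 1 library left out. For the difference between states (13 genes) they were 86 with no filter, 8 without the robust option, 57 with DESeq2 and 3 to 22 with 1 library left out. The difference between Ga13 and the other lines (0 genes) gave 22 with no filter, 4 with DESeq2 and 0 to 3 with 1 of 36 libraries left out. The biosensor's log2 difference was 6.30 with a pseudocount of 1 CPM and 7.24 to 7.79 with 1 library left out. The cause of these shifts was not tested.

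The labels do not say what a replicate number marks, and the main fits did not take libraries of the same number as pairs. Pairing was to be used if the pairs correlated over 0.1, and 0 of 18 did (-0.007 to 0.091). Yet 11 of 12 libraries correlated best with their own number. The third replicate of each group also had the lowest macrophage sum, at 251 to 261 CPM against 317 to 350 CPM elsewhere. These are hints of a shared origin, which was not tested, and the main counts rest on leaving replicate number out. With the replicate block the counts were 25 over both states, 33 at rest, 112 with TRAP-6, 138 for the difference between states and 87 for the difference between lines. Gna13 turned slightly positive, at 0.001 with upper-quartile scaling and ranged from -0.023 to 0.012 with 1 library left out (above or at 0 in 4 fits), and was never called.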

Other observations

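Some gene groups not described above held small differences. Of 18 genes of the NRF2 oxidative stress response, 14 had a positive log2 change and 0 were called by edgeR or DESeq2. At an unadjusted edgeR p under 0.05, 3 were higher and 0 lower, against 2.8% and 2.01% of all genes. Fth1, the ferritin heavy chain, averaged 1013 ± 29.8 CPM with Cre virus and 945.9 ± 18.7 CPM with empty virus (SD, n = 6), without overlap, a log2 change of 0.09 ± 0.03. Igf2, a fetal growth factor, averaged 12.1 ± 0.762 CPM with Cre virus and 9.94 ± 0.722 CPM with empty virus, also without overlap, a change of 0.27 ± 0.08 (edgeR adjusted p = 0.566). Of 25 glycolysis and hypoxia genes 4 were lower and 0 higher at an unadjusted p under 0.05, against 2.01% and 2.8% of all genes. By either tool 0 were called. Fth1 and Igf2 were chosen after their values were seen. All 6 Cre libraries lay on 1 side of all 6 empty virus libraries in 0.227% of all genes.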
